A study of Rattus norvegicus with 10 samples.

Results

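The genes described here are the ligands and receptors of the 4 classical axon guidance systems, measured in left hippocampi of 10 TgF344-AD rats, all female. Members were taken by symbol: semaphorins of classes 3 to 7, plexins, neuropilins, Eph receptors, ephrins, Robo receptors, Slits, netrins, and the netrin receptors Unc5 and Dcc. The rule found 60 of the 17168 gene symbols in the table, and 55 of the 60 passed the filter on low counts. By family the 60 were 19 semaphorins, 5 plexins, 2 neuropilins, 11 Eph receptors, 7 ephrins, 4 Robo receptors, 3 Slits, 4 netrins and 5 netrin receptors. Members of these families that the table does not list were not analysed here. All animals carried the TgF344-AD transgenes, which a mouse prion promoter drives and which make the strain a model of Alzheimer's disease, and no animal without them was compared. Of the 10 rats, 5 ate ordinary rodent chow and 5 ate chow with 750 mg RG2833, an inhibitor of the histone deacetylases HDAC1 and HDAC3, per kg. Feeding began at 5 months of age and lasted 6 months, and tissue was taken at 11 months, after ketamine and xylazine anaesthesia and perfusion with cold buffer in every animal. A blue food dye was used to tell the chows apart, and the labels do not say which chow held it.

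Guidance cues steer growing axons. Slits are secreted proteins that repel axons through Robo receptors, ephrins are membrane-bound ligands of the Eph receptor tyrosine kinases, semaphorins act through plexins with or without a neuropilin co-receptor, and netrins attract through Dcc and repel through Unc5 receptors. In the adult hippocampus many of these genes stay on in neurons, where Eph receptors and semaphorins are known for roles at dendritic spines and synapses, and several also act in blood vessels.

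Total counts ran from 8764245 to 11311652 per animal, and the 60 members took 0.266 to 0.378% of them in untreated and 0.347 to 0.439% in RG2833 animals. Values below are CPM, the count of a gene relative to the size of its library after TMM scaling and not to gene length, so they compare animals for 1 gene and not genes with each other. Markers of hippocampal pyramidal neurons were present, with 10 of the 11 listed CA genes past the filter. The 12 excitatory neuron markers summed to between 5814 and 8161 CPM in untreated and between 8541 and 9669 CPM in RG2833 animals, with no overlap and no marker at 0 in all animals. Sums of the CA pyramidal markers were 1608 to 3074 CPM and 3049 to 3398 CPM. Nptx1 is in both lists and made up much of each CA sum, at 788 to 1232 CPM in untreated and 1430 to 1911 CPM in RG2833 animals. The CA genes Wfs1, Fibcd1 and Mpped1 overlapped between groups. Of the 10 tested CA genes, 8 had log2 fold changes above 0 and 2 below. Sums of the dentate granule markers also overlapped, at 128 to 405 CPM and 239 to 342 CPM, with a median log2 fold change of 0.02. Loci of ribosomal RNA took 2.70 to 5.36% of the counts in untreated and 1.13 to 1.96% in RG2833 animals, so this share separated the groups exactly as the treatment did. Untreated animal 1 held 2527 CPM of choroid plexus markers, against 7.15 to 51.2 CPM in the other animals, all 10 of those markers being in the table. Endothelial markers summed to 299 to 475 CPM in untreated and 287 to 309 CPM in RG2833 animals.

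**Figure D1:**
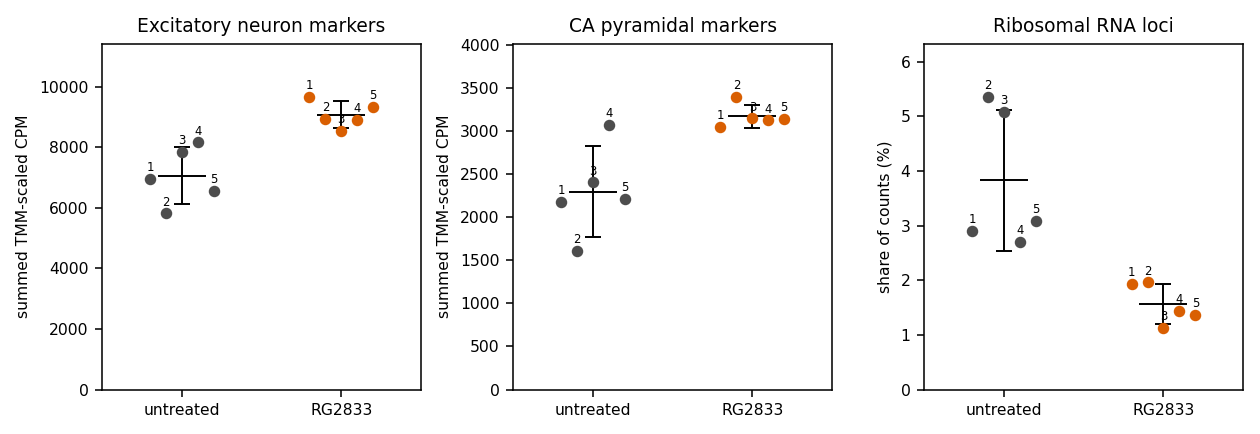
Summed TMM-scaled CPM of the excitatory neuron markers (left) and of the CA pyramidal markers (middle), and share of counts at ribosomal RNA loci in percent (right), in each animal. Points are animals with their number, bars the mean and SD of 5 animals. Excitatory marker sums and ribosomal RNA shares do not overlap between groups, and untreated animal 4, at 3074 CPM, lies inside the RG2833 range of the CA markers. Nptx1 is counted in both marker sums.

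After 6 months of RG2833, 3 receptor genes were higher: Robo2, Robo1 and Ephb2. Each rose by a log2 fold change between 0.52 and 0.74, that is 1.43- to 1.67-fold. A gene was called when its adjusted p was under 0.05 in edgeR's quasi-likelihood test over all 11791 tested genes. The 3 calls were 5.45% of the 55 tested members, close to the 5.08% called among all tested genes, where 2.41% were higher and 2.67% lower. No member was called lower in this test. Without adjustment, 3 members had a p under 0.05 in the lower direction and 14 in the higher direction. DESeq2's Wald test called 0 members lower and 8 higher, where 5.16% of all genes were called higher. Over all genes 12.7% were lower and 11.8% higher at that unadjusted p.

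Most differences among the members were positive. The log2 fold change was above 0 for 39 of the 55 tested members, against 49.4% of all tested genes, and its median was 0.20 against -0.00347 over all genes. In the fit without covariates, 22 of the 26 tested receptors and co-receptors had a value above 0 (median 0.32), and 17 of the 29 tested ligands did (median 0.06). Receptors and ligands were not tested against each other. In bulk tissue, a change in the number of cells of a type and a change in RNA per cell cannot be told apart. The higher level of the 12 listed excitatory markers in RG2833 animals, which the dentate granule markers did not share, moved with these differences. With that marker score as a covariate, the median log2 fold change over the members was -0.01 and 0 members were called at an adjusted p under 0.05 by edgeR. With the log2 share of ribosomal RNA as a covariate the median was -0.05 and again 0 were called. Receptors above 0 then numbered 4 of 10 Eph, 3 of 4 Robo, 3 of 5 plexins, 0 of 2 neuropilins and 2 of 5 Unc5 and Dcc. Ligands above 0 numbered 5 of 18 semaphorins, 3 of 5 ephrins, 2 of 3 Slits and 2 of 3 netrins. Under the marker score the log2 fold changes of the 3 called genes were 0.28 for Robo2, 0.42 for Robo1 and 0.14 for Ephb2. Under the ribosomal RNA share they were 0.37, 0.20 and 0.21. In each of these fits 0.017% of all genes were called, and 0 members had an unadjusted p under 0.05 in the lower direction. Since both measures separate the groups fully or almost fully, their part and that of the treatment cannot be told apart.

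**Figure D2:**
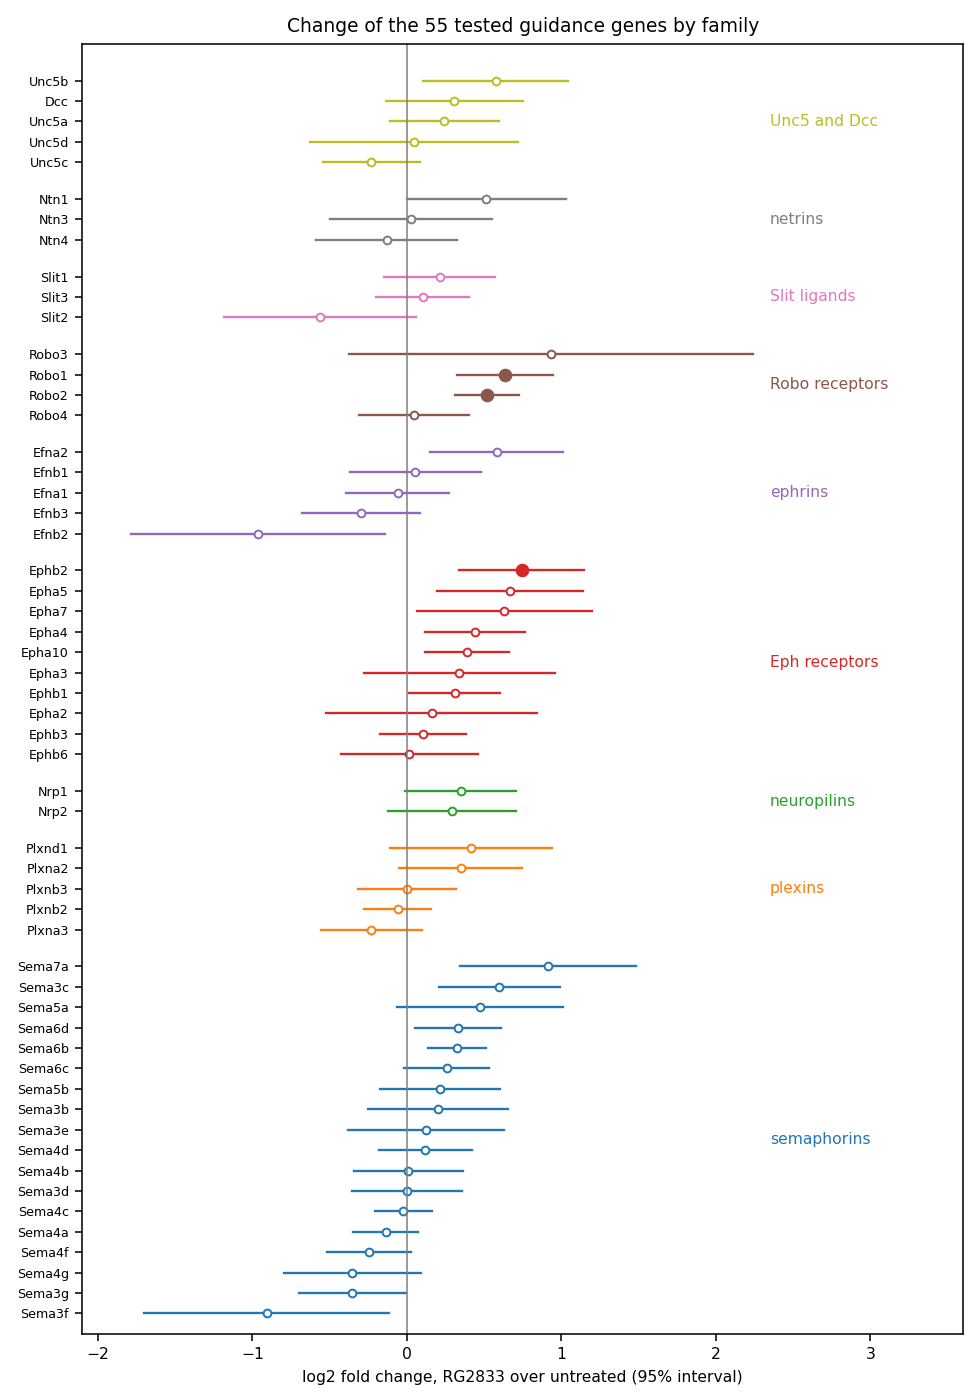
Log2 fold change of RG2833 over untreated animals (horizontal axis) for the 55 tested members (vertical axis), grouped by family, with 95% intervals from the edgeR fit. Filled points are the 3 called genes, Ephb2, Robo1 and Robo2. In this fit, which has no covariate, all 10 Eph receptors and all 4 Robo receptors have values above 0; with the ribosomal RNA covariate 6 Eph receptors and Robo3 do not.

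Robo receptors and Slits were examined first. Robo2 encodes a Slit receptor of neurons and showed the smallest p of all members. It measured 93.9, 99.1, 85.0, 121 and 104 CPM in untreated animals 1 to 5 and 154, 148, 142, 125 and 153 CPM in RG2833 animals 1 to 5. The lowest RG2833 animal lay above the highest untreated animal, so the groups did not overlap. The mean rose from 101 ± 13.5 CPM without to 144 ± 11.9 CPM with RG2833 (SD, n = 5 each), a log2 fold change of 0.52 ± 0.10 (SE, adjusted p = 0.0159 by edgeR). The neighbouring gene Robo1, another neuronal Slit receptor, measured 36.3, 23.6, 33.3, 34.3 and 43.4 CPM in untreated animals 1 to 5 and 47.4, 53.0, 50.9, 47.9 and 65.8 CPM in RG2833 animals 1 to 5. Again the groups did not overlap, with untreated animal 2 lowest and RG2833 animal 5 highest. Robo1 rose from 34.1 ± 7.11 CPM without to 53.0 ± 7.52 CPM with RG2833 (SD, n = 5 each), a log2 fold change of 0.63 ± 0.14 (SE, adjusted p = 0.0307 by edgeR). These were the only members without overlap between groups, 2 of 55, while 7.27% of all tested genes had none.

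Robo2 stayed called in 9 of the 10 fits that left out 1 animal, and lost its call without RG2833 animal 5 (edgeR adjusted p = 0.0523). Robo1 stayed called in 3 of the 10, namely without untreated animal 2, 4 or 5. Its log2 fold change ran from 0.53 to 0.74 in these fits, and its adjusted p from edgeR reached 0.0845.

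Robo3, which steers commissural axons at the midline, varied more between animals than any other member. It measured 12.7, 15.2, 5.93, 62.5 and 4.13 CPM in untreated animals 1 to 5 and 20.6, 37.9, 67.9, 22.4 and 44.6 CPM in RG2833 animals 1 to 5. Untreated animal 4 stood at a level that only RG2833 animal 3 passed, while the other 4 untreated animals lay below all RG2833 animals. The log2 fold change was 0.93 ± 0.60 (SE, adjusted p = 0.360 by edgeR), and the coefficient of variation was 120.3% in untreated and 49.7% in RG2833 animals. Robo4, the Robo receptor of endothelial cells, ranged over 4.69 to 8.15 CPM without and 5.53 to 7.11 CPM with RG2833, with a log2 fold change of 0.05 ± 0.16 and a 95% interval of -0.31 to 0.40. Robo3 and Robo4 did not pass, and Robo3 was picked out after its values were seen.

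None of the 3 Slit ligands passed. Slit1 had the most counts of the 3 and measured 117, 131, 174, 159 and 219.6 CPM in untreated animals 1 to 5 and 213, 156, 169.8, 159.5 and 229 CPM in RG2833 animals 1 to 5, a log2 fold change of 0.21 ± 0.16 (SE, adjusted p = 0.452 by edgeR). Slit2 had the smallest p of the family. It measured 74.6, 48.7, 125, 36.8 and 116 CPM in untreated animals 1 to 5 and 63.8, 47.8, 43.4, 55.8 and 61.0 CPM in RG2833 animals 1 to 5. Untreated animals 1, 3 and 5 were above all RG2833 animals, whereas untreated animal 4 was the lowest of all 10. The log2 fold change of Slit2 was -0.56 ± 0.29 (SE, adjusted p = 0.246 by edgeR), with an interval of -1.18 to 0.06. Slit3 ranged over 58.7 to 103 CPM without and 77.2 to 95.5 CPM with RG2833, a log2 fold change of 0.10 ± 0.14 (SE, adjusted p = 0.685 by edgeR).

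To show the sequence next to the annotated starts of the genes that passed, the 250 bases before each start are given here for both called Robo genes, taken from RefSeq on build GRCr8, whereas the submitters' processing notes name rn6 for the counts. Robo1 has 2 starts in that table, at chr11:24067706-24067955 and chr11:24714445-24714694 on the plus strand, and Robo2 has 1, at chr11:26526413-26526662 on the minus strand. Each is written 5′ to 3′ on the strand of the gene, with matches to the motifs searched in capitals.
Robo1, first start: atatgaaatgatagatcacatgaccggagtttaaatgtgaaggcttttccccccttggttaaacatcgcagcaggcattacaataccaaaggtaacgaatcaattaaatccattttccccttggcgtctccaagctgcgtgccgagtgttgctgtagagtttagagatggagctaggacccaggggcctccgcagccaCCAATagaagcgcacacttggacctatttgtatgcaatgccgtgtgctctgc
Robo1, second start: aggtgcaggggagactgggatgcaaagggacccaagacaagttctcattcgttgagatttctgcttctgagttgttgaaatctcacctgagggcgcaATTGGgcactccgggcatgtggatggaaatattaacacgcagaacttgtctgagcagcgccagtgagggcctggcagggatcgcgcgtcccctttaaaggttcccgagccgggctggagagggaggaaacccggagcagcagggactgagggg
Robo2: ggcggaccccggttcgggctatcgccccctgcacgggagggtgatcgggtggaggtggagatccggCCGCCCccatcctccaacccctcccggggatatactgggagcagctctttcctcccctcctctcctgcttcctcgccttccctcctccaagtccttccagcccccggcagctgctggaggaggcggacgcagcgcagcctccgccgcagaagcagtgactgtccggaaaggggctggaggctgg
The capitals mark a CCAAT box (CCAAT or its reverse) in both Robo1 windows and a GC box (GGGCGG or its reverse) in the Robo2 window. GC made up 48.0 and 57.2% of the Robo1 windows and 69.2% of the Robo2 window, against a median of 60.4% over the windows of all tested genes. Whether these bases regulate the genes, and which Robo1 start is used in these animals, was not tested.

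Motifs were searched on both strands of the 300 bases around each start, the last 50 lying after it. Shares are given over the 9270 windows of tested genes and then over all 33469 windows in the table. A CCAAT box was held by 36.9% and 37.5% of these and by 16 of the 48 windows of members. A GC box was held by 62.2% and 33.1% and by 24 of the 48, so the members' share lay below the share of tested genes and above that of all windows. The cyclic AMP response element TGACGTCA was in 3.26% and 1.83% and in 1 of the 48, and its shorter form TGACGT, which it contains, in 11.5% and 7.94% and in 2. The E-box CACGTG was in 8.98% and 6.42% and in 4 of the 48. The EGR sites GCGTGGGCG and GCGGGGGCG were in 6.24% and 3.20% and in 5 of the 48, and the TATA box TATAAA in 6.59% and 14.2% and in 0 of the 48. Of these, the 4 windows of the called genes held only the CCAAT and GC boxes. A window was found for 47 of the 60 members.

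In the test without covariates the 10 tested Eph receptors had a log2 fold change above 0, with a median of 0.36, and 1 of the 10 was called, against 5.08% of all tested genes. All 10 were also above 0 with DESeq2 size factors and with library totals. With the ribosomal RNA share as covariate 6 of the 10 were below 0 (Epha3, Epha4, Epha5, Epha7, Ephb1 and Ephb6), and with the excitatory marker score 4 were (Epha3, Epha4, Epha7 and Ephb6). The called gene was Ephb2, a receptor for ephrin-B ligands that is known for its contact with NMDA receptors at excitatory synapses. Ephb2 measured 11.4, 11.6, 12.3, 20.6 and 16.3 CPM in untreated animals 1 to 5 and 25.1, 21.6, 26.4, 17.5 and 30.8 CPM in RG2833 animals 1 to 5. Here 4 untreated animals lay below all RG2833 animals, and untreated animal 4 lay above RG2833 animal 4. The mean rose from 14.4 ± 3.96 CPM without to 24.3 ± 5.01 CPM with RG2833 (SD, n = 5 each), a log2 fold change of 0.74 ± 0.19 (SE, adjusted p = 0.0420 by edgeR). Ephb2 stayed called without untreated animal 4, without untreated animal 5 and without RG2833 animal 4, and lost its call in the other 7 fits that left out 1 animal (largest edgeR adjusted p = 0.114).

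The window before the Ephb2 start, given for the same reason, lies on the minus strand at chr5:154360425-154360674 of GRCr8 (RefSeq). Its capitals mark a CCAAT box in reverse, and GC made up 68.4% of it.
Ephb2: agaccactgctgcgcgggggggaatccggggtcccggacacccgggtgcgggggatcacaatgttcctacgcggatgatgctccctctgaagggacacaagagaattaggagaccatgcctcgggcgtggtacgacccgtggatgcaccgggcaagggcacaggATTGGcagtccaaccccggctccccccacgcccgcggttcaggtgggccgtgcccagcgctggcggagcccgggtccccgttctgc

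Epha4, which binds ephrins of both classes and acts at dendritic spines, had the most counts of the Eph receptors. It measured 294, 225, 296, 452 and 329 CPM in untreated animals 1 to 5 and 438, 411, 446, 380.2 and 486 CPM in RG2833 animals 1 to 5. Its level in untreated animal 4 was exceeded only by RG2833 animal 5, and the other 4 untreated animals lay below all RG2833 animals. The log2 fold change was 0.44 ± 0.15 (SE, adjusted p = 0.0978 by edgeR), so the gene did not pass. The same arrangement, with 4 untreated animals below all RG2833 animals and untreated animal 4 inside their range, was seen for Epha5 and Epha7, receptors of ephrin-A ligands. Epha5 measured 107, 61.1, 61.5, 149 and 96.4 CPM in untreated animals 1 to 5 and 141, 146, 153, 124 and 189.9 CPM in RG2833 animals 1 to 5, a log2 fold change of 0.67 ± 0.22 (SE, adjusted p = 0.0902 by edgeR). For Epha7 the untreated range was 42.5 to 153 CPM, its top being untreated animal 4, and the RG2833 range was 106 to 158 CPM, with a log2 fold change of 0.63 ± 0.26 (SE, adjusted p = 0.163 by edgeR).

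Epha10, an Eph receptor without kinase activity, and Ephb1 had unadjusted p-values under 0.05 without passing, with log2 fold changes of 0.39 ± 0.13 (SE, adjusted p = 0.0879 by edgeR) and 0.31 ± 0.14 (SE, adjusted p = 0.187 by edgeR). Ephb1 was nearly level across RG2833 animals, at 51.2 to 57.6 CPM, and ranged from 32.9 to 57.2 CPM in untreated animals. Epha5, Epha7, Epha10 and Ephb1 were chosen after their values were seen. The remaining Eph receptors, Epha2, Epha3, Ephb3 and Ephb6, had log2 fold changes between 0.02 and 0.34. Epha2 and Epha3 were low, at 1.49 to 3.24 CPM without and 1.34 to 4.01 CPM with RG2833 for Epha2 and 2.86 to 7.62 CPM without and 4.19 to 8.68 CPM with RG2833 for Epha3. Ephb3 ranged over 16.5 to 23.0 CPM without and 15.7 to 23.5 CPM with RG2833, with an interval of -0.17 to 0.38 for its log2 fold change. Ephb6, whose kinase domain is also inactive, ranged over 36.3 to 90.0 CPM without and 52.8 to 78.8 CPM with RG2833.

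Ephrins lay on both sides of 0. Of the 5 tested, 2 had log2 fold changes above 0 and 3 below, with a median of -0.06, and none passed (smallest edgeR adjusted p = 0.1 for Efna2, which was called in 0 of the 15 other settings). Efna2, a ligand held to the membrane by a lipid anchor, measured 5.61, 5.09, 2.69, 4.37 and 4.44 CPM in untreated animals 1 to 5 and 8.30, 6.69, 6.61, 4.97 and 6.49 CPM in RG2833 animals 1 to 5, a log2 fold change of 0.58 ± 0.20. In 4 of the 5 RG2833 animals Efna2 was above all untreated animals. Efnb3, a transmembrane ephrin, had the most counts and measured 179, 332, 294, 208 and 354 CPM in untreated animals 1 to 5 and 267, 197, 213, 241 and 195 CPM in RG2833 animals 1 to 5, a log2 fold change of -0.30 ± 0.18 (SE, adjusted p = 0.315 by edgeR). Untreated animals 2, 3 and 5 lay above all RG2833 animals for Efnb3, and untreated animal 1 below them.

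Efnb2, the transmembrane ephrin of arteries and neurons, was picked out after its values were seen, as the member with the lowest fold change. It measured 3.78, 7.39, 6.30, 3.54 and 14.4 CPM in untreated animals 1 to 5 and 5.34, 3.66, 2.07, 4.24 and 2.72 CPM in RG2833 animals 1 to 5, a log2 fold change of -0.96 ± 0.38 (SE, adjusted p = 0.142 by edgeR). Its untreated mean leaned on animal 5, since the other 4 untreated animals lay between 3.54 and 7.39 CPM. Over the fits that left out 1 animal, the log2 fold change of Efnb2 ran from -1.15 to -0.54. Efna1 ranged over 5.56 to 7.89 CPM without and 5.89 to 7.96 CPM with RG2833, a log2 fold change of -0.06. Efnb1 ranged over 11.6 to 21.9 CPM without and 13.1 to 21.1 CPM with RG2833, a log2 fold change of 0.06. The groups overlapped for both ephrins.

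**Figure D3:**
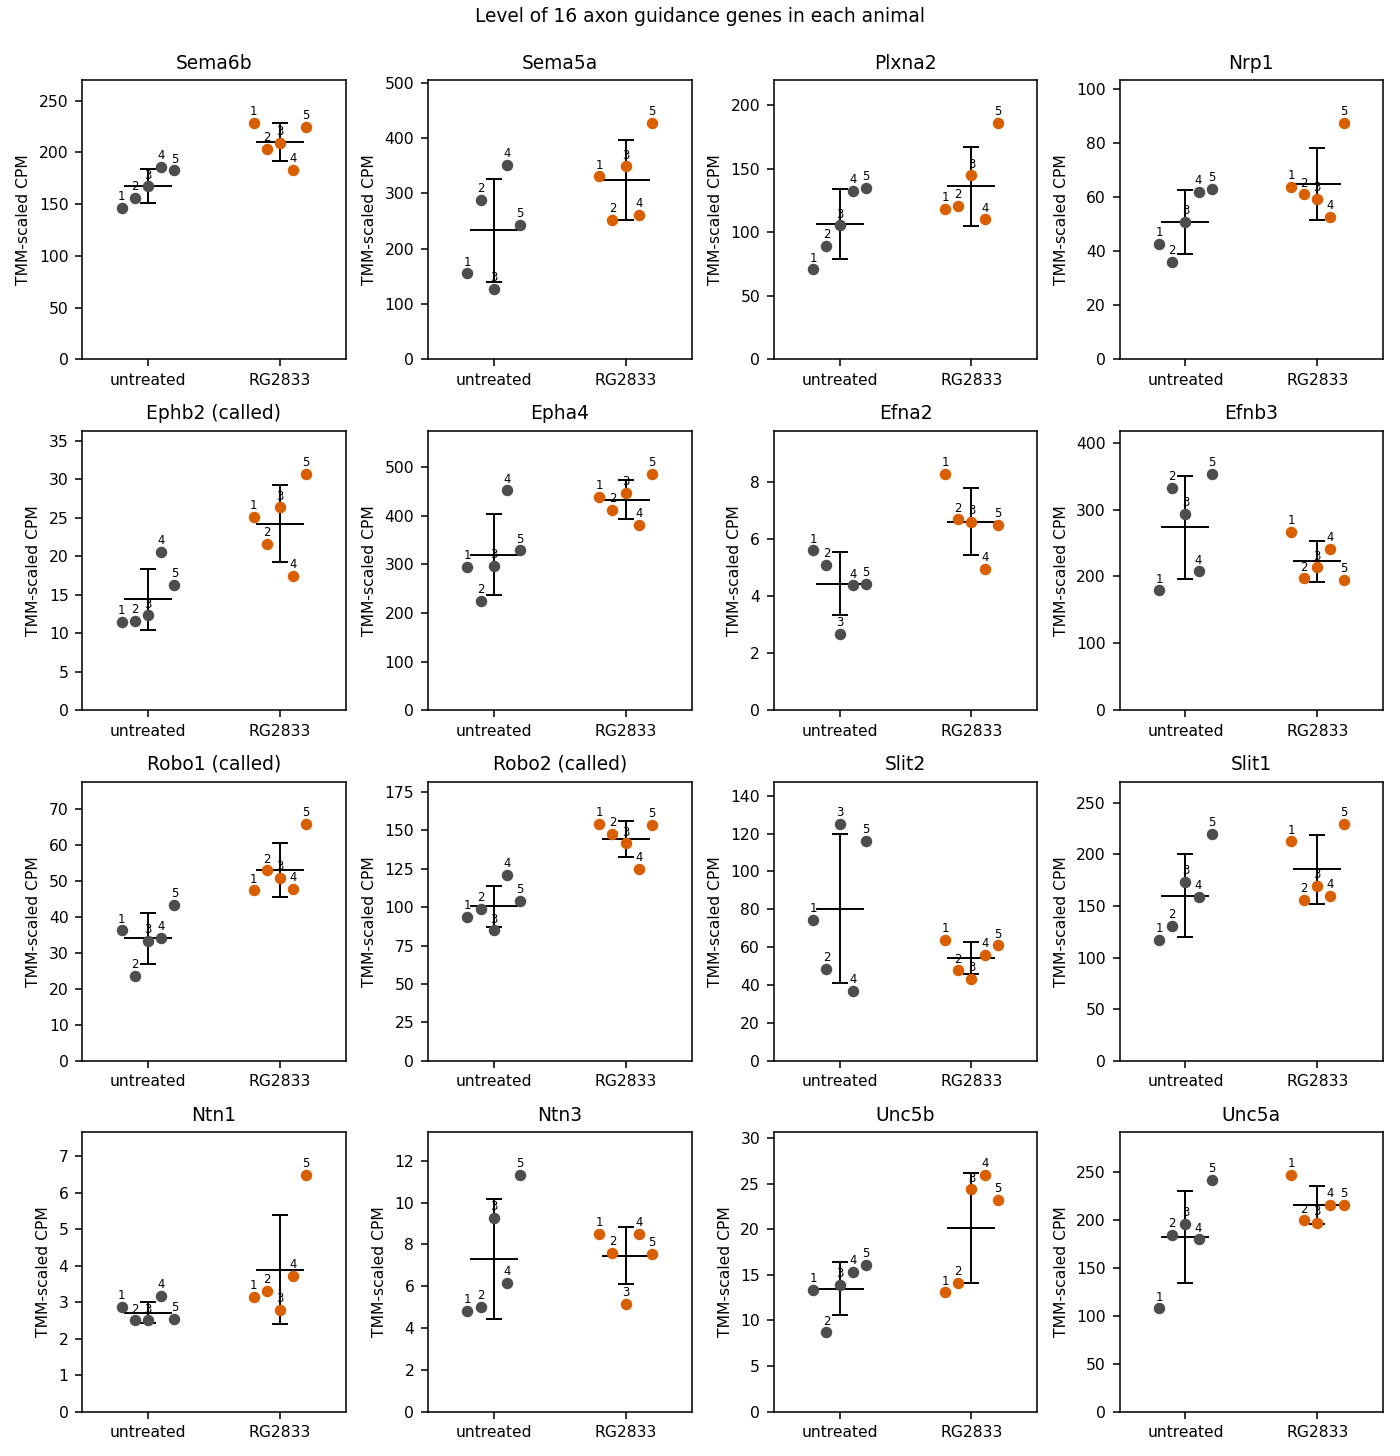
TMM-scaled CPM (vertical axis, from 0) of 16 members in each animal: the called genes, and for each family the member with the smallest p and the member with the most counts. Points are animals with their number, bars the mean and SD of 5 animals. Robo1 and Robo2 are the panels in which the groups do not overlap.

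Semaphorins were divided. Of the 18 tested, 11 had log2 fold changes above 0 and 7 below, the median was 0.12, and none passed. With the ribosomal RNA share as covariate 5 were above 0 and 13 below, and with 1 surrogate variable 8 and 10. Sema6b, a transmembrane semaphorin that acts through class A plexins, came closest. It measured 146, 156, 167, 186 and 183 CPM in untreated animals 1 to 5 and 228, 203, 209, 183 and 224 CPM in RG2833 animals 1 to 5, and 4 of the 5 RG2833 animals were above all untreated animals. Its log2 fold change was 0.32 ± 0.09 (SE, adjusted p = 0.0515 by edgeR). Sema5a, which has been tied to synapse number on dentate granule cells, had the most counts of the semaphorins. It measured 156, 288, 127, 352 and 243 CPM in untreated animals 1 to 5 and 331, 252, 349, 260.5 and 427 CPM in RG2833 animals 1 to 5, with both groups spread widely, and its log2 fold change was 0.47 ± 0.25 (SE, adjusted p = 0.260 by edgeR).

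Further semaphorins with an unadjusted p under 0.05 were chosen after their values were seen. Sema7a, which is anchored to the membrane by a lipid and signals through integrins and plexin C1, had the second highest log2 fold change of all members, 0.91 ± 0.26 (SE, adjusted p = 0.0634 by edgeR). It measured 148, 107, 122, 311 and 120.4 CPM in untreated animals 1 to 5 and 265, 272, 349.6, 253 and 384 CPM in RG2833 animals 1 to 5. Untreated animal 4 stood far above the other 4 untreated animals and within the RG2833 range. Sema3c, a secreted ligand of neuropilins, measured 49.0, 34.8, 33.3, 66.1 and 38.4 CPM in untreated animals 1 to 5 and 71.4, 60.1, 66.5, 53.8 and 83.7 CPM in RG2833 animals 1 to 5, a log2 fold change of 0.60 ± 0.18 (SE, adjusted p = 0.0744 by edgeR), and untreated animal 4 was again the one inside the RG2833 range. Sema6d gave 0.33 ± 0.13 (SE, adjusted p = 0.136 by edgeR). In the other direction, Sema3f, a secreted ligand of neuropilin 2, gave -0.91 ± 0.37 (SE, adjusted p = 0.152 by edgeR) at levels of only 0.763 to 4.23 CPM, and Sema3g gave -0.35 ± 0.16 (SE, adjusted p = 0.194 by edgeR).

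By class, the 3 tested Sema6 genes lay between 0.26 and 0.33 on the log2 scale, both Sema5 genes above 0, and 4 of the 6 Sema4 genes below 0. Sema3 genes were 3 above and 3 below. Sema4c measured 21.8 ± 1.10 CPM without and 21.5 ± 1.83 CPM with RG2833 (SD, n = 5 each), and the interval of its log2 fold change, -0.21 to 0.16, was the narrowest of the family. Sema4a (-0.14), Sema4f (-0.24) and Sema4g (-0.35) had log2 fold changes below 0, Sema4b (0.01) and Sema4d (0.12) above 0. Sema4g, a transmembrane semaphorin, ranged over 10.5 to 29.4 CPM without and 14.1 to 18.6 CPM with RG2833, and the lowest of its 10 values was that of untreated animal 4. Sema3e, which binds plexin D1 without a neuropilin, ranged over 15.3 to 46.9 CPM without and 33.1 to 42.3 CPM with RG2833, a log2 fold change of 0.12 ± 0.23. Sema3b and Sema3d gave 0.20 and -0.00109, and Sema5b 0.21.

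Plexins and neuropilins, the receptors of the semaphorins, did not pass. Plxna2, a receptor of class 5 and class 6 semaphorins, had the smallest p and the most counts of the 5 plexins. It measured 70.8, 89.6, 105, 132 and 135 CPM in untreated animals 1 to 5 and 118, 121, 145, 110.1 and 186 CPM in RG2833 animals 1 to 5, a log2 fold change of 0.35 ± 0.18 (SE, adjusted p = 0.260 by edgeR). Its animals formed a continuous range in which RG2833 animal 5 stood highest. The other plexins had log2 fold changes between -0.23 for Plxna3 and 0.42 for Plxnd1, a plexin of neurons and of vessels. Plxnd1 ranged over 18.7 to 41.0 CPM without and 22.8 to 44.2 CPM with RG2833. Plxna3, a partner of neuropilins, ranged over 47.6 to 85.2 CPM without and 43.9 to 61.0 CPM with RG2833. Plxnb2 and Plxnb3, receptors of class 4 and class 5 semaphorins, had intervals of -0.27 to 0.15 and -0.32 to 0.31 around log2 fold changes of -0.06 and -0.00224.

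Nrp1, co-receptor of Sema3a and of vascular endothelial growth factor, measured 42.6, 36.2, 50.7, 62.0 and 63.0 CPM in untreated animals 1 to 5 and 63.7, 60.9, 59.2, 52.7 and 87.4 CPM in RG2833 animals 1 to 5. The groups overlapped, with RG2833 animal 5 highest, and the log2 fold change was 0.35 ± 0.17 (SE, adjusted p = 0.220 by edgeR). Nrp2 gave 0.29 ± 0.19 (SE, adjusted p = 0.366 by edgeR). Both intervals included 0, and both neuropilins were below 0 with the excitatory marker score and with the ribosomal RNA share as covariate.

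Netrins and their receptors did not pass either. Ntn1, the secreted netrin that attracts axons through Dcc, was low in all animals. It measured 2.86, 2.50, 2.50, 3.16 and 2.54 CPM in untreated animals 1 to 5 and 3.15, 3.30, 2.79, 3.72 and 6.49 CPM in RG2833 animals 1 to 5, a log2 fold change of 0.51 ± 0.24 (SE, adjusted p = 0.205 by edgeR). RG2833 animal 5 stood apart, and the other 4 RG2833 animals lay between 2.79 and 3.72 CPM. Ntn3 had the most counts of the netrins and measured 4.80, 4.99, 9.27, 6.14 and 11.3 CPM in untreated animals 1 to 5 and 8.49, 7.58, 5.17, 8.48 and 7.53 CPM in RG2833 animals 1 to 5, with a log2 fold change of 0.03 ± 0.24 (SE, adjusted p = 0.955 by edgeR) whose sign turned under several alternatives. Ntn4, a netrin of basement membranes, gave -0.13 with an interval of -0.59 to 0.32.

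Among the receptors, Unc5b, which serves both axons and vessels, had the smallest p. It measured 13.4, 8.69, 13.9, 15.4 and 16.1 CPM in untreated animals 1 to 5 and 13.1, 14.1, 24.4, 26.0 and 23.2 CPM in RG2833 animals 1 to 5. RG2833 animals 3, 4 and 5 were above all untreated animals, while RG2833 animals 1 and 2 lay within the untreated range, and the log2 fold change was 0.58 ± 0.22 (SE, adjusted p = 0.127 by edgeR). Unc5a had the most counts and measured 108, 185, 196, 179.9 and 242 CPM in untreated animals 1 to 5 and 247, 199.9, 198, 216 and 216 CPM in RG2833 animals 1 to 5, a log2 fold change of 0.24 ± 0.16 (SE, adjusted p = 0.378 by edgeR). Untreated animal 1, the library with choroid plexus markers, was the lowest for Unc5a. Dcc ranged over 11.7 to 23.0 CPM without and 15.1 to 28.6 CPM with RG2833, a log2 fold change of 0.31 ± 0.20. Unc5c was the netrin receptor with a value below 0, -0.23 ± 0.15, and ranged over 49.4 to 81.9 CPM without and 44.3 to 63.2 CPM with RG2833. Unc5d gave 0.04 ± 0.31, with the widest interval of the 5, -0.63 to 0.72.

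Looking across animals, untreated animal 4 resembled the RG2833 animals in many of these genes. The first principal component of the 55 members held 52.5% of the variance. All RG2833 animals scored between 0.42 and 2.70 on it, on a scale whose sign is arbitrary, and untreated animal 4 scored 2.20, whereas the other 4 untreated animals lay between -3.47 and -1.72. Untreated animal 4 was the highest of the untreated group for 16 of the 55 members and the lowest for 10, and untreated animal 5 the highest for 21 and the lowest for 2. Over all tested genes these animals were the highest of their group for 19.1% and 21.4%. In the RG2833 group, animal 5 was the highest for 24 of the 55, against 24.8% of all tested genes. Untreated animal 4 had the highest sum of CA pyramidal markers of its group, 3074 CPM. Its ribosomal RNA share, 2.70%, was the lowest of its group, but untreated animals 1 and 5 were close, at 2.91 and 3.08%. Its excitatory marker score, the mean centred log2 CPM of those markers, was 0.17. The other untreated animals scored -0.45 to -0.20 and the RG2833 animals 0.14 to 0.31. The part of these measures in its guidance gene levels was not tested.

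**Figure D4:**
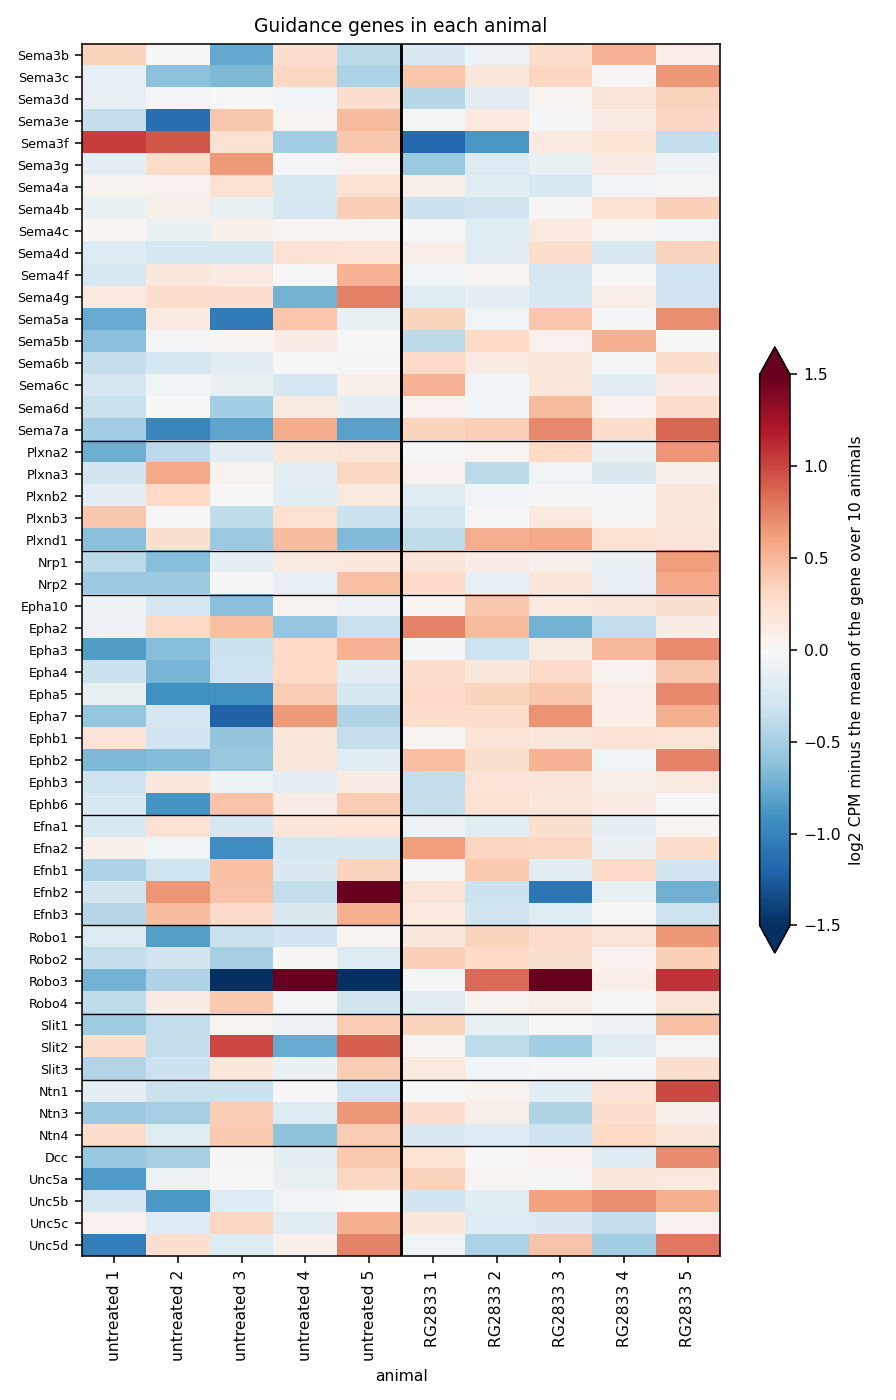
Log2 CPM of the 55 tested members (rows, grouped by family) in the 10 animals (columns), each gene centred on its mean over all animals. Colours run from -1.5 to 1.5 and values beyond that take the end colour. Untreated animal 4 is red, like most RG2833 animals, in the rows of Sema7a, Epha4, Epha5, Epha7 and Robo3.

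Leaving out untreated animal 4 changed the count of calls more than leaving out any other animal. Without it, 14 of the 55 members were called, 12 higher and 2 lower, or 25.5%, while 13.1% of all tested genes were called (6.84% higher and 6.3% lower). The 11 added genes were Epha4, Epha5, Epha7, Epha10, Robo3, Sema3c, Sema6b, Sema6d and Sema7a in the higher direction and Sema3f and Sema4g in the lower. Robo3 then had a log2 fold change of 2.03 (edgeR adjusted p = 0.00949) and Sema7a of 1.29 (edgeR adjusted p = 0.000431). Epha7 reached 0.97 (edgeR adjusted p = 0.00500). With all 10 animals and the ribosomal RNA share as covariate these 3 genes turned below 0, to -0.93 for Robo3, -0.0851 for Sema7a and -0.18 for Epha7, all with an edgeR adjusted p of 0.9999. Without RG2833 animal 5, by contrast, 0 members were called at an adjusted p under 0.05, and 98 genes were called over the whole table. Untreated animal 4 was singled out after its values were known, and the labels give no reason to drop it.

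**Figure D5:**
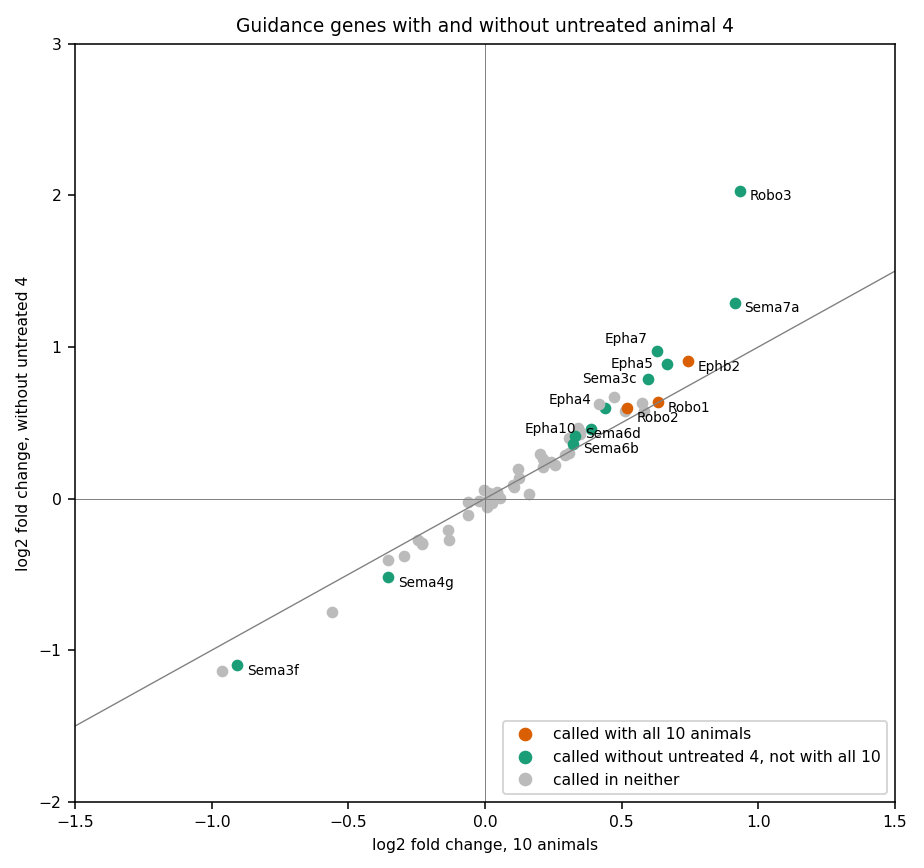
Log2 fold change of each tested member with all 10 animals (horizontal axis) and without untreated animal 4 (vertical axis); the diagonal marks equal values. Orange points are called with all 10 animals and green points without untreated animal 4 but not with all 10. Robo3 moves from 0.93 to 2.03 and Sema7a from 0.91 to 1.29.

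Many of these genes are long, and the 3 called genes are longer than the median member. Genomic span, taken from the GRCr8 gene table for all 55 tested members, had a median of 55.8 kb, against 24.3 kb over the 11582 tested genes with a span. Robo2 spans 1568 kb, the longest of the members, Robo1 1041 kb and Ephb2 181 kb. When the trend of each library with gene span was removed, Robo2 had a log2 fold change of 0.37 and was not called (edgeR adjusted p = 0.0516), whereas Robo1 (0.51, edgeR adjusted p = 0.0250) and Ephb2 (0.67, edgeR adjusted p = 0.0319) were. In that fit 3.14% of all genes were called higher.

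Other settings moved the count as follows. A covariate for the choroid plexus score left 1 member called higher, Robo2, where 0.407% of all genes were called higher. With 1 surrogate variable 0 members were called, where 0.416% of all genes were. At an adjusted p under 0.1 by edgeR, 9 members were called higher and 5.92% of all genes, the added ones being Epha4, Epha5, Epha10, Sema3c, Sema6b and Sema7a. Without untreated animals 1 and 4 together, a setting chosen after seeing the data, 12 members were called higher and 5 lower (Efnb2, Efnb3, Sema4f, Sema4g and Slit2), where 6.39% of all genes were called higher and 5.2% lower.

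Other genes of guidance signalling were taken from a list of 83 cytoplasmic transducers, co-receptors and further cues, of which 74 were in the table and tested. Of these 74, 5 were called higher and 0 lower at an adjusted p under 0.05 by edgeR, or 6.76% against the 5.08% of all tested genes. The median log2 fold change of the list was 0.07. At an adjusted p under 0.05, DESeq2's Wald test called 9 higher and 1 lower, while it called 10.9% of all tested genes. The kinases Src and Fyn, which relay signals of Eph, semaphorin and netrin receptors, both rose. Src measured 63.9, 65.6, 65.5, 78.3 and 83.6 CPM in untreated animals 1 to 5 and 92.2, 89.3, 94.2, 98.2 and 109.6 CPM in RG2833 animals 1 to 5, a log2 fold change of 0.44 ± 0.09 (SE, adjusted p = 0.0247 by edgeR). Fyn measured 127, 129, 125, 151 and 127 CPM in untreated animals 1 to 5 and 164, 156, 167, 161 and 166 CPM in RG2833 animals 1 to 5, a log2 fold change of 0.30 ± 0.07 (SE, adjusted p = 0.0309 by edgeR). Neither gene overlapped between groups.

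Mical2, an enzyme that oxidises actin, rose from 208 ± 37.2 CPM without to 291 ± 16.6 CPM with RG2833 (SD, n = 5 each), a log2 fold change of 0.48 ± 0.11 (SE, adjusted p = 0.0328 by edgeR). Gpc1, a heparan sulfate proteoglycan that binds Slits, rose from 209 ± 44.3 CPM without to 311 ± 33.8 CPM with RG2833 (SD, n = 5 each), a log2 fold change of 0.57 ± 0.13 (SE, adjusted p = 0.0350 by edgeR). Lrrc4b, a synaptic adhesion protein of the netrin-G ligand family, rose from 360.4 ± 31.9 CPM without to 439.9 ± 11.0 CPM with RG2833 (SD, n = 5 each), a log2 fold change of 0.29 ± 0.07 (SE, adjusted p = 0.0444 by edgeR). These 3 genes also had no overlap between groups. In all 7 of the 74 listed genes had none, or 9.46%, against 7.27% of all tested genes, the other 2 being Mical1 and Cntn2, which were not called. All 5 held without untreated animal 4 and without untreated animal 5. All 5 were lost without untreated animal 2, without untreated animal 3 and without any 1 of the RG2833 animals, and only Gpc1 was called without untreated animal 1. The share of all genes called fell in the same fits, to between 0.826 and 2.37%. With the excitatory marker score, the ribosomal RNA share, the choroid plexus score or 1 surrogate variable as covariate, 0 of the 74 were called by edgeR. With the gene span trend removed, Fyn was not called and the other 4 were.

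The 5 members below the filter were Efna4, Efna5, Epha1, Ntn5 and Sema3a. Their counts ran from 0 to 25 per animal, and 3 counts corresponded to 0.268 to 0.343 CPM. Efna5 had 4 to 25 counts in untreated and 1 to 9 in RG2833 animals. Sema3a, the founding secreted semaphorin, had 3 to 17 and 2 to 8 counts. When no filter was applied, none of the 5 passed, with log2 fold changes from -1.28 for Efna5 (edgeR adjusted p = 0.213) to 0.37 for Ntn5 (edgeR adjusted p = 0.647). Without the filter 4 members had an unadjusted p under 0.05 in the lower direction, against 3 with it.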

How the data were processed

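RNA of 10 left hippocampi was sequenced from stranded mRNA libraries, per the labels' protocols. The authors deposited estimated counts per gene symbol with 2 decimals, made with RSEM per the file name, and a normalized signal, CPM after TMM scaling, per the file name. The submitters' processing notes name bcl2fastq 2.17, Bowtie2 2.1.0, RSEM 1.2.15, edgeR and build rn6. RSEM shares reads between similar genes, so counts of close family members may be uncertain.

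Here the estimated counts were rounded, filtered with filterByExpr (11791 genes) and tested with edgeR 4.0.16 (R 4.3.3): TMM scaling, quasi-likelihood test, 5 untreated against 5 RG2833 animals, no covariate, Benjamini-Hochberg adjustment over all tested genes. Standard errors are log2 fold changes over the square root of F, and intervals are 95%. The fit was tested on simulated data. Alternatives included DESeq2 1.42.0, limma 3.58.1 on the deposited signal, sva 3.50.0, a replicate block, covariates, a gene span trend and leaving out animals. Across the 20 pairs of animals within groups, chi-square per degree of freedom was 4.73 to 38.1, so no library was a repeat. The floor of 3 counts covers counting error only.

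Members and lists were chosen with earlier results of these data known. Called members, and in each family the member with the smallest p and that with the most counts, were named with every value. Other genes named were chosen after their values were seen.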

Additional observations from a re-analysis of the deposited data

Results flagged for a closer look

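Each group of 5 animals was checked for a value whose gap to the nearest other animal was more than 0.71 of the whole range, Dixon's 95% limit for 5 samples. Among 144 groups of 5 values, 10 held such a value, where chance flags about 1 in 20, or 7.2. No explanation was weighed.

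Among guidance genes, untreated animal 4 was high for Sema7a, at 311 CPM where the rest of its group had 107 to 148 CPM, and for Robo3, at 62.5 CPM against 4.13 to 15.2 CPM. Sema5b was low in untreated animal 1, at 8.47 CPM against 13.1 to 14.2 CPM, and Sema4c was low in untreated animal 2, at 19.9 CPM against 21.96 to 22.7 CPM. In the RG2833 group, Ntn1 was high in animal 5, at 6.49 CPM against 2.79 to 3.72 CPM. Ephb3 was low in animal 1, at 15.7 CPM against 21.7 to 23.5 CPM, and Ntn3 was low in animal 3, at 5.17 CPM against 7.53 to 8.49 CPM.

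Among marker sums, choroid plexus markers stood at 2527 CPM in untreated animal 1 against 10.6 to 29.3 CPM in the rest of that group. CA pyramidal markers stood at 3398 CPM in RG2833 animal 2 against 3049 to 3147 CPM. Markers of thalamus and habenula, which lie outside the hippocampus, stood at 52.9 CPM in RG2833 animal 3 against 28.7 to 34.9 CPM.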

How the results depend on the processing

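Against 3 members called higher and 0 lower, the numbers were 3 or 4 and 0 with DESeq2 size factors, no scaling beyond library totals, no low-count filter or a stricter one, limma-voom and limma trend, where 3.21 to 6.28% of all genes were called, and 2 and 0 with the gene span trend removed. The number called higher was 8 with DESeq2's Wald test, 9 at an adjusted p under 0.1, 1 with the choroid plexus score as a covariate (Robo2), and 0 with ribosomal RNA, the excitatory neuron score or 1 surrogate variable as a covariate. Listed signalling genes numbered 10, 9, 0, 0, 0 and 0 in those 6 settings in turn, against 5. Of all tested genes, 10.9, 12.4, 1.16, 0.017, 0.017 and 0.416% were called in the same order. Fits that left out 1 animal gave 0 to 12 members higher, 0 to 2 lower and 0 to 12 signalling genes, while 0.826 to 13.1% of all genes were called, the highest values without untreated animal 4 and 0 members without RG2833 animal 5. Without untreated animals 1 and 4 together, an alternative chosen after seeing the data, the numbers were 12, 5 and 15, where 11.6% of all genes were called.

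Same-numbered animals are different rats, and their deviations from the group means correlated between -0.32 and 0.15, with 1 of 5 untreated animals closest to its own number. With the replicate block 1 member was called (Robo1), 3 signalling genes, and 1.53% of all genes. The 3 were Mical2 and Src, called higher, and Rock1, called lower, so Fyn, Gpc1 and Lrrc4b lost their calls. The replicate block left Robo2 at an edgeR adjusted p of 0.0536 and Ephb2 at 0.0841.

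Among the 16 members named by the rule of calls, smallest p and most counts, signs turned only for ones that were not called. The called ones shrank, to as low as 0.28 for Robo2 and 0.14 for Ephb2 with the excitatory neuron score and 0.20 for Robo1 with ribosomal RNA. With ribosomal RNA as a covariate, log2 fold changes were -0.0741 for Plxna2, -0.0455 for Nrp1, -0.0752 for Epha4, 0.20 for Efnb3 and -0.39 for Unc5b. With the excitatory neuron score they were -0.22 for Plxna2, -0.14 for Nrp1, -0.11 for Epha4, -0.0155 for Slit1 and -0.0816 for Ntn3. With 1 surrogate variable they were -0.0497 for Plxna2, -0.0829 for Slit1, -0.21 for Ntn3 and -0.00251 for Unc5a. Ntn3 was also at -0.0864 with the choroid plexus score and at -0.19 without untreated animals 1 and 4. It ranged from -0.0859 to 0.235 over the fits that left out 1 animal, 5 of them below 0. Signs also turned outside the 16: with ribosomal RNA as a covariate Robo3, Sema3c, Sema6d, Sema7a, Epha5, Epha7 and Ephb1, among others, fell below 0. The cause was not tested. Counts of 25 or fewer per animal limit the 5 untested members.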
